A study of Mus musculus with 9 samples.

Results

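Ribosomal protein pseudogenes of the mouse genome are described here in hippocampal RNA of the lupus-prone strain MRL/lpr and of its control strain MRL/mpj. The members were chosen by name and by count. The symbol of a member begins with Rpl, Rps or Rplp and contains -ps in the GENCODE annotation of GRCm38, and its counts sum to at least 90 over the 9 libraries. Of the 274 genes of the count matrix with such a symbol, 33 reached this minimum, out of 47643 genes in the matrix. The summed count that chose the members does not use the groups, and it is given as a description only.

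Ribosomal proteins of the small subunit (Rps genes) and of the large subunit (Rpl genes) are made in every cell, and their messages are among the most abundant. Processed pseudogenes arise when such a message is copied into DNA by the reverse transcriptase of a retrotransposon and inserted elsewhere, without introns and usually without the promoter of the parent gene. Many copies are nearly identical to the parent gene, so a short read from one can align to the other, and inserted copies can differ between inbred strains.

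The study sequenced poly-A-selected hippocampal RNA from 9 mice, with 1 library per mouse and 3 mice per group. The groups are MRL/mpj mice (labelled WT, genotype wild type, untreated), MRL/lpr mice (genotype MRL-lpr) and MRL/lpr mice given mesenchymal stem cells, called MRL/lpr+MSC here. Set against MRL/mpj, the MRL/lpr libraries ask how the lupus-prone hippocampus differs from the control. Set against MRL/lpr, the MRL/lpr+MSC libraries ask what cell therapy changes, whereas against MRL/mpj they differ in both genotype and treatment. MRL/lpr mice carry an insertion in Fas, a death receptor of lymphocytes. All mice were 6 weeks old per the labels. The labels give the MRL/lpr group as untreated, whereas the title of the series names PBS, and they give the strain C57BL/6 for every library, whereas the study describes MRL/MpJ and MRL/MpJ-Faslpr mice.

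Library totals ran from 19475804 to 26912031 counts, and 3 counts correspond to 0.111 to 0.154 on the counts-per-million (CPM) scale of a library. CPM values below are scaled by TMM (trimmed mean of M values). Fas had 40, 43 and 30 counts in MRL/mpj, 65, 31 and 42 in MRL/lpr, and 19, 24 and 41 in MRL/lpr+MSC, so its groups overlapped and it did not separate the genotypes. An expression table published with the study carries columns named for MRL/mpj and MRL/lpr. Its MRL/mpj columns are constant multiples (within 0.1%) of the deposited values labelled WT for 100% of genes. Its MRL/lpr columns are such multiples of the libraries labelled MRL-lpr+MSC for 100% of genes, and of any library labelled MRL-lpr for at most 0.657% of genes. Below, MRL/lpr and MRL/lpr+MSC mean the libraries that the deposited labels name so.

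The 33 members took a small share of the counts. This share was 0.0502%, 0.0514% and 0.0464% in MRL/mpj, 0.0388%, 0.0381% and 0.0391% in MRL/lpr, and 0.0340%, 0.0392% and 0.0403% in MRL/lpr+MSC. Every MRL/mpj library was above every library of the other 2 groups. In CPM, the members summed to 516 ± 21.9 (SD, n = 3) in MRL/mpj, 370 ± 4.66 in MRL/lpr and 376 ± 20.4 in MRL/lpr+MSC. The 79 ribosomal protein genes themselves summed to 14430 ± 649, 14798 ± 387 and 14131 ± 873 CPM.

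A few members carried most of that signal, and MRL/mpj differed from the other groups in which ones. Rps2-ps13 held 65.7%, 58.8% and 69.4% of the member counts of the MRL/mpj libraries. In MRL/lpr, Rps2-ps10 held 33.4%, 33.8% and 30.8% and Rpl14-ps1 held 28.7%, 27.6% and 29.3%. In MRL/lpr+MSC, Rps2-ps10 held 31.03%, 32.8% and 33.0% and Rpl14-ps1 held 28.5%, 28.4% and 28.5%. Without these 3 members the sums were 178 ± 34.8, 143 ± 4.81 and 147 ± 4.34 CPM, with a wide spread in MRL/mpj that Rpsa-ps10 and Rps26-ps1, described below, contribute to.

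**Figure D1:**
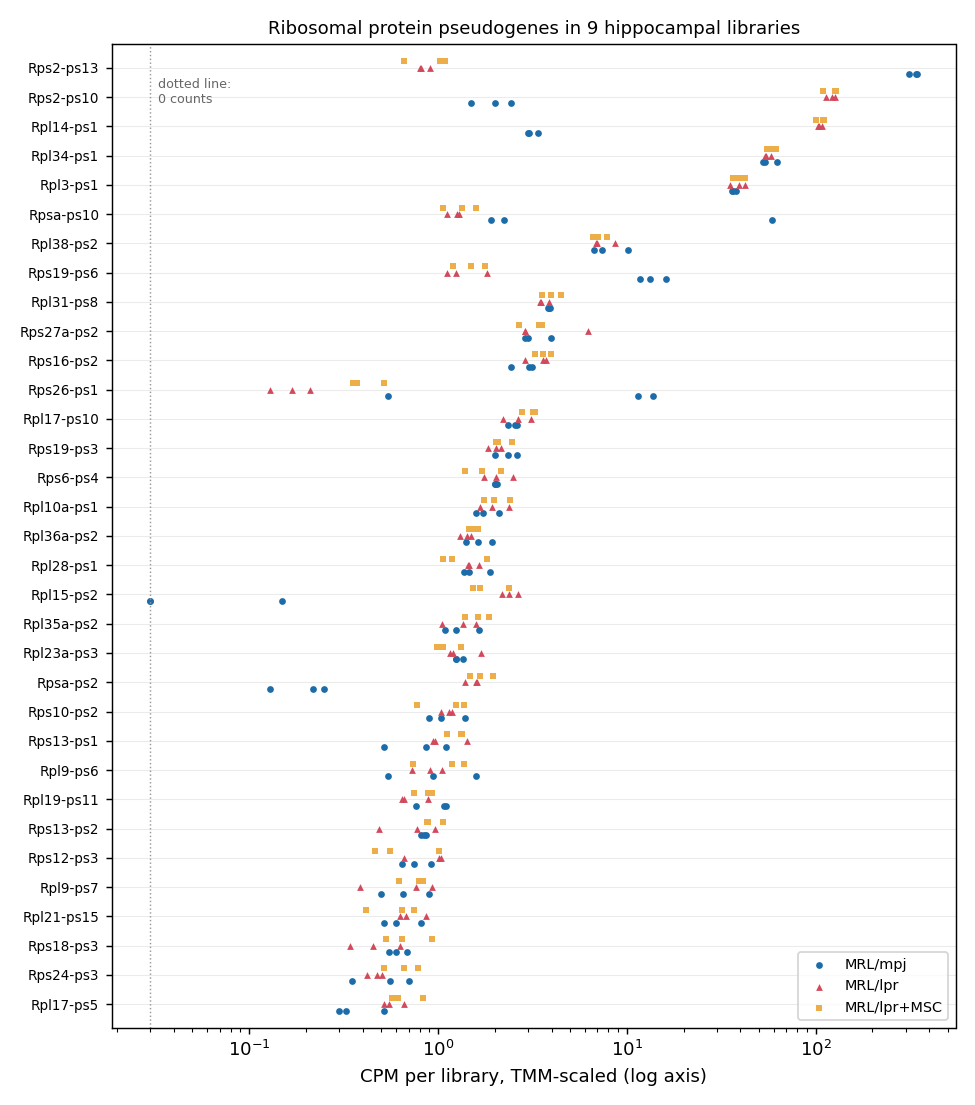
CPM of the 33 members in each of the 9 libraries (log axis), with MRL/mpj as blue circles, MRL/lpr as red triangles and MRL/lpr+MSC as yellow squares, and libraries with 0 counts on the dotted line. Rps2-ps13 and Rps19-ps6 have their blue circles far to the right of the other symbols, and Rps2-ps10, Rpl14-ps1, Rpsa-ps2 and Rpl15-ps2 have them far to the left.

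Between MRL/lpr and MRL/mpj, 6 of the 33 members were called. A gene is called where its p in limma voom, adjusted by Benjamini-Hochberg over the genes tested, is below 0.05 and its fold is 1.5 or more. By this rule 5.79% of the 16697 genes tested were called. Rps2-ps10, Rpl14-ps1, Rpsa-ps2 and Rpl15-ps2 were higher in MRL/lpr (3.41% of genes tested were higher), and Rps2-ps13 and Rps19-ps6 were lower (2.38% of genes tested were lower). The median log2 fold change was 0.01 over the members and 0.02 over all genes tested. With 1 library left out the members' median ran from -0.07 to 0.08. The called genes of this comparison number 967, and leaving out 1 library moved that number between 165 (without MRL/mpj 3) and 1695 (without MRL/lpr 2), with 253 without MRL/mpj 1, 260 without MRL/mpj 2, 421 without MRL/lpr 1 and 1510 without MRL/lpr 3.

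Between MRL/lpr+MSC and MRL/mpj, 6 of 33 members were called, 4 higher and 2 lower, beside 3.43% of the 16196 genes tested, 1.93% higher and 1.5% lower. The median log2 fold change was 0.05 over the members and 0.01 over all genes tested. With 1 library left out the members' median ran from 0.02 to 0.09. The 556 called genes of this comparison became 193, 201 and 206 without MRL/mpj 1, 2 and 3, and 1514, 359 and 276 without MRL/lpr+MSC 1, 2 and 3. With the replicate number as a block they became 283. This comparison shares its MRL/mpj libraries with the one above, so its values are given side by side with it and not as a second observation.

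Between MRL/lpr+MSC and MRL/lpr, limma voom called 0 of 32 members tested and 0.0% of 16758 genes tested. At an unadjusted p under 0.05 there were 0 members and 647 genes. Limma-trend, a test added after seeing the data, gave 685 genes at that level and called 0. Leaving out 1 library moved the 647 genes between 336 (without MRL/lpr 1) and 1210 (without MRL/lpr 3), and no filter gave 1305. With no filter, or without MRL/lpr+MSC 1, 1 member was at that level. The median log2 fold change was 0.12 over the members and 0.00 over all genes tested. With 1 library left out the members' median ran from 0.04 to 0.14.

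All 33 members were tested in both comparisons with MRL/mpj. Of these, 29 had at least 30 counts in each group and 4 did not. The 4 are Rpl15-ps2 with summed counts of 3 in MRL/mpj, 183 in MRL/lpr and 117 in MRL/lpr+MSC, in the same order Rpsa-ps2 with 12, 115 and 108, Rps26-ps1 with 554, 13 and 26, and Rpl17-ps5 with 24, 44 and 43. Rps26-ps1 reached the minimum of 90 through its MRL/mpj counts, and Rpl15-ps2 and Rpsa-ps2 through their MRL/lpr and MRL/lpr+MSC counts, so such members had to differ and the number called is read against no expectation. Just inside the minimum lay Rps18-ps3 with 118 counts, Rpl17-ps5 with 111 and Rps24-ps3 with 110, and just outside lay Rpl39-ps with 88, Rpl36a-ps3 with 77 and Rps12-ps1 with 75. Of the 241 symbols below the minimum, 114 had no count in any library, and together the 241 had 172 to 304 counts per library.

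Among the copies of small-subunit genes, the 2 copies of Rps2 stood in opposite groups. Rps2 encodes a protein near the entry site of messenger RNA on the small subunit. Rps2-ps13 (ENSMUSG00000081684, chrX:52898588-52899469, plus strand) had 345, 313 and 341 CPM in the MRL/mpj libraries, 0.909, 0.818 and 0.803 in MRL/lpr, and 1.09, 1.02 and 0.663 in MRL/lpr+MSC. It was high in the 3 MRL/mpj libraries and near 1 CPM in the other 6, with no overlap. In limma voom with Benjamini-Hochberg adjustment its log2 fold change was -8.59 (SE 0.20, adjusted p = 1.91e-05, lower in 3 of 3 libraries) in MRL/lpr and -8.49 (SE 0.23, adjusted p = 1.68e-05, 3 of 3) in MRL/lpr+MSC. In bulk tissue, fewer cells of a type and less RNA per cell cannot be told apart. Whether this copy differs between the strains in the genome was not tested.

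Rps2-ps10 (ENSMUSG00000091957, chr18:61259008-61259972, minus strand) lies in an intron of Pde6a on the opposite strand and is annotated as a transcribed processed pseudogene. It had 2.45, 1.504 and 2.01 CPM in the MRL/mpj libraries, 122, 127 and 114 in MRL/lpr, and 109, 126 and 129 in MRL/lpr+MSC. The pattern was the mirror image of Rps2-ps13, low in the 3 MRL/mpj libraries and high in the other 6. Its log2 fold change by limma voom with Benjamini-Hochberg adjustment was 5.95 (SE 0.20, adjusted p = 8.5e-05, higher in 3 of 3) in MRL/lpr and 5.96 (SE 0.23, adjusted p = 6.43e-05, 3 of 3) in MRL/lpr+MSC. The copies are 99.8% identical to each other over 882 bases, so the counting could split reads between them and the parent gene, and how a read shared by several copies was counted is not stated.

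The parent gene Rps2 was lower as well. It had 143, 131 and 141 CPM in the MRL/mpj libraries, 80.0, 88.5 and 79.0 in MRL/lpr, and 72.5, 81.1 and 82.7 in MRL/lpr+MSC, with every MRL/mpj library above the rest. By limma voom with Benjamini-Hochberg adjustment its log2 fold change was -0.75 (SE 0.07, adjusted p = 0.00390, lower in 3 of 3) in MRL/lpr and -0.81 (SE 0.08, adjusted p = 0.00325, 3 of 3) in MRL/lpr+MSC. Per length, in the deposited FPKM (fragments per kilobase of gene, scaled to the size of the library), Rps2-ps13 stood at 391, 354 and 391 in MRL/mpj beside 78.1, 71.6 and 78.0 for Rps2. In MRL/lpr it was Rps2-ps10 that exceeded the parent, at 125, 130 and 118 FPKM beside 43.4, 47.9 and 43.1 for Rps2. Both excesses depend on the gene length that FPKM divides by, and they were smaller in CPM. There Rps2-ps13 had 345, 313 and 341 in MRL/mpj, and Rps2-ps10 had 122, 127 and 114 in MRL/lpr, beside the CPM of Rps2 above.

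Counts of a parent gene and its members were also summed. The sum does not depend on how counted reads were split among them, but it misses reads that the counting may have left out for matching several copies. The Rps2 family summed to 491, 446 and 485 CPM in the MRL/mpj libraries, 203, 216 and 194 in MRL/lpr, and 183, 208.5 and 212 in MRL/lpr+MSC. The sum thus differed between the groups as the parent and Rps2-ps13 did. Its log2 fold change by limma voom with Benjamini-Hochberg adjustment was -1.21 (SE 0.07, adjusted p = 0.000936, lower in 3 of 3) in MRL/lpr and -1.23 (adjusted p = 0.000956, 3 of 3) in MRL/lpr+MSC, and it was -0.02 between MRL/lpr+MSC and MRL/lpr.

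Rps19-ps6 (ENSMUSG00000096942, chr12:110898114-110898551, plus strand) is a copy of Rps19, a small-subunit gene mutated in Diamond-Blackfan anaemia, and lies in an intron of Tecpr2 on the same strand. It had 11.7, 16.2 and 13.3 CPM in the MRL/mpj libraries, 1.12, 1.25 and 1.82 in MRL/lpr, and 1.504, 1.21 and 1.77 in MRL/lpr+MSC. The lowest MRL/mpj library was far above the highest of the other 6. The log2 fold change by limma voom with Benjamini-Hochberg adjustment was -3.32 (SE 0.27, adjusted p = 0.00234, lower in 3 of 3) in MRL/lpr and -3.19 (SE 0.26, adjusted p = 0.00158, 3 of 3) in MRL/lpr+MSC. For Rps19 itself the log2 fold change was 0.23 (adjusted p = 0.102 by limma voom, higher in 3 of 3) in MRL/lpr and was not called.

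The copies of Rpsa, whose protein is part of the small subunit and is also known as the laminin receptor, did not behave alike. Rpsa-ps2 (ENSMUSG00000045055, chr10:128776371-128777250, minus strand) had 5, 3 and 4 counts in MRL/mpj, 40, 37 and 38 in MRL/lpr, and 38, 32 and 38 in MRL/lpr+MSC, with no overlap between MRL/mpj and the rest. Its log2 fold change by limma voom with Benjamini-Hochberg adjustment was 2.86 (SE 0.35, adjusted p = 0.00819, higher in 3 of 3) in MRL/lpr and 3.01 (SE 0.36, adjusted p = 0.00642, 3 of 3) in MRL/lpr+MSC. The call rests on a few counts per MRL/mpj library. The call was lost in MRL/lpr without MRL/mpj 2 (log2 fold change 2.57, adjusted p = 0.0530 by limma voom, higher in 3 of 3) and without MRL/mpj 3 (2.95, adjusted p = 0.0626), and in MRL/lpr+MSC without MRL/mpj 2 (2.70, adjusted p = 0.0529). Over all alternatives the adjusted p ran from 0.00254 to 0.0626 in MRL/lpr and from 0.00227 to 0.0529 in MRL/lpr+MSC.

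Rpsa-ps10 (ENSMUSG00000047676, chr3:150072658-150073542, minus strand) was high in 1 mouse. It had 2.25, 58.7 and 1.90 CPM in the MRL/mpj libraries, 1.12, 1.29 and 1.27 in MRL/lpr, and 1.35, 1.07 and 1.59 in MRL/lpr+MSC. MRL/mpj 2 stood apart from the other 8 libraries. The parent Rpsa had its lowest value in that library, with 405, 298 and 389 CPM in MRL/mpj beside 321, 355 and 333 in MRL/lpr. The family sum was 407, 357 and 391 CPM in MRL/mpj beside 324, 358 and 336 in MRL/lpr, so MRL/mpj 2 lay within the range of the other libraries. In limma voom with Benjamini-Hochberg adjustment the log2 fold change of Rpsa-ps10 was -2.53 (adjusted p = 0.378, lower in 3 of 3) in MRL/lpr and -2.41 (adjusted p = 0.498, 3 of 3) in MRL/lpr+MSC, and was not called. Without MRL/mpj 2 it was -0.76 and -0.67, and over all alternatives it reached -3.73 and -3.67, both with the replicate number as a block.

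Rps26-ps1 (ENSMUSG00000059775, chr8:107439131-107439579, minus strand), in an intron of Wwp2 on the opposite strand, was high in 2 of the 3 MRL/mpj mice. It had 13.8, 11.5 and 0.544 CPM in the MRL/mpj libraries, 0.210, 0.129 and 0.169 in MRL/lpr, and 0.519, 0.371 and 0.354 in MRL/lpr+MSC. MRL/mpj 3 lay just above the MRL/lpr+MSC libraries and MRL/mpj 1 and 2 far above them. Its log2 fold change was -4.69 (adjusted p = 0.211 by limma voom, lower in 3 of 3) in MRL/lpr and -3.50 (adjusted p = 0.344, 3 of 3) in MRL/lpr+MSC, and was not called. Without MRL/mpj 3 it was -6.05 (adjusted p = 0.00691 by limma voom, lower in 3 of 3) and -4.87 (adjusted p = 0.00473), both past the threshold. With the replicate number as a block and all libraries kept it was -5.16 (adjusted p = 0.0362 by limma voom, lower in 3 of 3) in MRL/lpr, which also passes, so the call depends on the library and on the block. Over all alternatives the adjusted p ran from 0.00691 to 0.427 in MRL/lpr and from 0.00473 to 0.571 in MRL/lpr+MSC.

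Among the copies of large-subunit genes, Rpl14-ps1 (ENSMUSG00000046721, chr7:45324965-45325617, plus strand) had the highest counts among the called. It lies in an intron of Trpm4 on the opposite strand. It had 3.39, 3.05 and 2.99 CPM in the MRL/mpj libraries, 105, 103 and 109 in MRL/lpr, and 100.5, 109.5 and 111 in MRL/lpr+MSC. The 3 MRL/mpj libraries were low and close together, and the other 6 were high and close together. Its log2 fold change by limma voom with Benjamini-Hochberg adjustment was 5.06 (SE 0.13, adjusted p = 1.91e-05, higher in 3 of 3) in MRL/lpr and 5.08 (SE 0.14, adjusted p = 1.68e-05, 3 of 3) in MRL/lpr+MSC.

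Rpl14 itself was lower where its copy was higher. It had 273, 251 and 237 CPM in the MRL/mpj libraries, 147, 143 and 155 in MRL/lpr, and 139, 139.8 and 149 in MRL/lpr+MSC, with no overlap between MRL/mpj and the rest. By limma voom with Benjamini-Hochberg adjustment its log2 fold change was -0.76 (SE 0.07, adjusted p = 0.00403, lower in 3 of 3) in MRL/lpr and -0.82 (SE 0.08, adjusted p = 0.00282, 3 of 3) in MRL/lpr+MSC. The sum of parent and copy was level across the groups. It was 276, 254 and 240 CPM in the MRL/mpj libraries, 252, 247 and 264 in MRL/lpr, and 239, 249 and 260 in MRL/lpr+MSC, with a log2 fold change of -0.01 (95% interval -0.18 to 0.17) in MRL/lpr and -0.03 in MRL/lpr+MSC. In deposited FPKM, Rpl14-ps1 stood at 146, 144 and 153 in MRL/lpr beside 156, 152 and 166 for Rpl14, and at 4.78, 4.29 and 4.26 in MRL/mpj beside 291, 268 and 256.

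**Figure D2:**
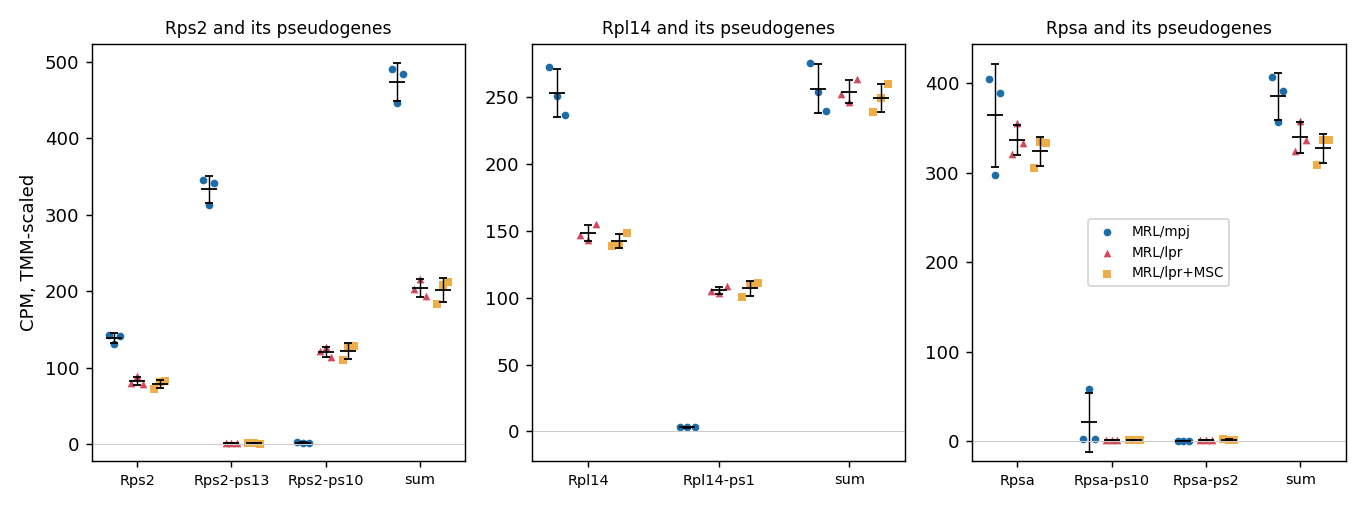
CPM of Rps2, Rpl14 and Rpsa, of their member pseudogenes and of each family's sum, with 1 point per library and the mean ± SD of the 3 libraries of a group in black. The Rps2 sum is lower in MRL/lpr and MRL/lpr+MSC than in MRL/mpj, and the Rpl14 sums overlap between the groups.

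Rpl15-ps2 (ENSMUSG00000098915, chr9:72060937-72061549, plus strand), a copy of a gene of the large subunit, lies in an intron of Tcf12 on the opposite strand. It had 3, 0 and 0 counts in MRL/mpj, 76, 55 and 52 in MRL/lpr, and 46, 33 and 38 in MRL/lpr+MSC. It was all but absent from MRL/mpj and present in each of the other 6 libraries. From the summed counts the ratio to MRL/mpj was 49.8 (95% exact interval 16.8 to 244) in MRL/lpr and 37.9 (12.7 to 186) in MRL/lpr+MSC, and such intervals cover counting error only. In limma voom with Benjamini-Hochberg adjustment it was higher in 3 of 3 libraries with an adjusted p of 0.00691 in MRL/lpr (log2 fold change 5.70, which depends on the prior count) and of 0.00851 in MRL/lpr+MSC (5.30). That call was lost in MRL/lpr without MRL/mpj 3 (5.31, adjusted p = 0.0619 by limma voom, higher in 3 of 3), and in MRL/lpr+MSC without MRL/mpj 2 (4.71, adjusted p = 0.0723) and without MRL/mpj 3 (4.91, adjusted p = 0.0745). Over all alternatives the adjusted p ran from 0.00212 to 0.0619 in MRL/lpr and from 0.00353 to 0.0745 in MRL/lpr+MSC.

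Another copy of Rpl15, which is named Gm10020 and is therefore not a member, was singled out after its values were seen. It had 0.1997, 0.0430 and 0.0544 CPM in the MRL/mpj libraries, 8.46, 9.69 and 8.58 in MRL/lpr, and 8.76, 9.56 and 9.10 in MRL/lpr+MSC. Like Rpl15-ps2 it was high in the 6 libraries of the MRL/lpr genotype. It was the only one called among 10 tested pseudogenes with Gm names and at least 90 counts that share at least 20% of their 31-base words with a parent of the members. Its log2 fold change was 6.40 (adjusted p = 0.00125 by limma voom with Benjamini-Hochberg adjustment, higher in 3 of 3) in MRL/lpr. Rps2, Rpl14, Rps19 and Rpsa are not among the parents of those copies. Gm4294, also a copy of Rpl15, had 1.20, 1.03 and 1.63 CPM in the MRL/mpj libraries and 2.17, 2.71 and 2.45 in MRL/lpr. In MRL/lpr+MSC it had 1.61, 2.46 and 2.12. Its log2 fold change was 0.94 (adjusted p = 0.0604 by limma voom, higher in 3 of 3) in MRL/lpr, and it was not called.

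The other 25 members were not called in either comparison with MRL/mpj. Their log2 fold changes ran from -0.42 to 0.58 in MRL/lpr (lowest adjusted p 0.294 by limma voom) and from -0.24 to 0.80 in MRL/lpr+MSC (lowest adjusted p 0.231). For 6 of the 25 in each comparison the 95% interval lay within a 1.5-fold change in either direction, and for the rest it reached past that. The median half-width of the intervals was 0.63 in MRL/lpr and 0.58 in MRL/lpr+MSC on the log2 scale. Whether depth or the spread between mice set this width was not tested.

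The best-counted of these were level. Rpl34-ps1, a copy of a large-subunit gene, had 62.7, 52.6 and 54.3 CPM in the MRL/mpj libraries, 58.2, 54.9 and 53.9 in MRL/lpr, and 55.3, 61.7 and 57.8 in MRL/lpr+MSC. Rpl3-ps1, a copy of the gene for a protein near the catalytic centre of the large subunit, had 38.0, 36.5 and 36.1 CPM in the MRL/mpj libraries, 35.4, 42.3 and 39.3 in MRL/lpr, and 36.8, 39.2 and 42.5 in MRL/lpr+MSC. The groups overlapped in both. Rpl34-ps1 had a log2 fold change of -0.01 (95% interval -0.22 to 0.19) in MRL/lpr, and Rpl3-ps1 of 0.08.

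Rpl38-ps2 and Rpl31-ps8, copies of large-subunit genes, also overlapped between the groups, with means of 8.09 ± 1.80 and 3.87 ± 0.0672 CPM in MRL/mpj beside 7.53 ± 1.02 and 3.62 ± 0.221 in MRL/lpr. Rps27a-ps2, a copy of the gene for ubiquitin fused to a small-subunit protein, had 2.90, 2.89 and 6.25 CPM in MRL/lpr, and 3.99, 2.88 and 2.99 in MRL/mpj. MRL/lpr 3 was above the other 8 libraries, and the groups overlapped.

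Between MRL/lpr+MSC and MRL/lpr the 31 tested members other than Rpsa-ps10 had log2 fold changes from -0.41 to 0.54, and the lowest adjusted p by limma voom was 0.921. For 7 of them the 95% interval lay within a 1.5-fold change in either direction. Rps2-ps13 had a log2 fold change of 0.09, Rps2-ps10 of 0.01 and Rpl14-ps1 of 0.02. Rps26-ps1 had too few counts in these groups to be tested.

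The ribosomal protein genes were read beside their copies. Of 78 tested, 2 were lower in MRL/lpr than in MRL/mpj, Rps2 and Rpl14, which is 2.56% beside 2.38% of all genes tested. The median log2 fold change of the 78 was 0.08. It was positive for 58 of them, which is 74.4% beside 52.8% of all genes tested. An unadjusted p under 0.05 by limma voom was found for 17 of the 78, beside 5081 of the 16697 genes tested. In MRL/lpr+MSC 3 of 78 were lower, Rps2, Rpl14 and Rplp0, a protein of the stalk of the large subunit. This is 3.85% beside 1.5% of all genes tested. The median was 0.02, with 44 of the 78 positive, which is 56.4% beside 51.7% of all genes tested. At an unadjusted p under 0.05 by limma voom were 9 of the 78, beside 3710 of the 16196 genes tested. Rplp0 has no copy among the 33, and its log2 fold change was -0.65 (adjusted p = 0.00792 by limma voom, lower in 3 of 3) in MRL/lpr+MSC and -0.52 (adjusted p = 0.0233, 3 of 3) in MRL/lpr, where it fell short of 1.5-fold. With the members added to their parents, 1 of 27 families was called in each comparison with MRL/mpj, the Rps2 family, while 5.72% of features were called in MRL/lpr and 3.35% in MRL/lpr+MSC in the fits with summed families. The other 26 families had log2 fold changes from -0.18 to 0.53 in MRL/lpr and from -0.23 to 0.22 in MRL/lpr+MSC.

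Other pseudogenes were called as well. Of 57 other tested pseudogenes with -ps in the symbol and at least 90 counts, 3 were higher and 1 lower in MRL/lpr, which is 7.02%. Of 318 other genes of a pseudogene biotype 24 were higher and 18 lower, which is 13.2%, beside 5.79% of all genes tested. In MRL/lpr+MSC the numbers were 4 higher and 1 lower of 56, which is 8.93% beside 3.43% of all genes tested. Of 306 other genes of a pseudogene biotype 18 were higher and 17 lower, which is 11.4%. Whether the members differ from these pseudogenes in the share called was not tested.

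The members share features that the rule did not use. All 33 have a single annotated exon, 31 carry a pseudogene biotype and 2 are annotated as protein coding. They derive from 27 parents, of which 6 have 2 members, and lie on 17 chromosomes. Of the 33, 14 lie in an intron of another gene, 12 of them on the opposite strand and 2, Rps19-ps6 and Rpl36a-ps2, on the same strand. Whether the counting used the strand of the reads is not stated, so host transcripts cannot be separated from the copies by strand.

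The host genes of the called members were not called. Trpm4, the host of Rpl14-ps1, had 11.9 ± 1.07 CPM in MRL/mpj beside 10.7 ± 2.18 in MRL/lpr (log2 fold change -0.16). Tcf12, the host of Rpl15-ps2, had 60.2 ± 2.92 and 71.0 ± 2.40 CPM (0.24, adjusted p = 0.0668 by limma voom, higher in 3 of 3), and Tecpr2, the host of Rps19-ps6, had 100.2 ± 30.2 and 87.3 ± 6.96 CPM (-0.15). Pde6a, the host of Rps2-ps10, had too few counts to be tested. Within 1000 kb of the 6 called members, a window chosen after seeing the data, 6 of 234 other tested genes were called in MRL/lpr, which is 2.56% beside 5.79% of all genes tested, and limma-trend called 13 of them, beside 1323 of all genes tested. These were Cd74, Tex9 and Fuz, which were higher, and Mamstr, Dbp and A230087F16Rik, which were lower. In MRL/lpr+MSC 3 of 225 were called (4 by limma-trend), which is 1.33% beside 3.43% of all genes tested, and Dbp, A230087F16Rik and 2810029C07Rik were lower.

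In the reference sequence, the members stayed close to their parents. All sequences and identities given here are those of GRCm38, and the copies carried by the mice sequenced were not read. Aligned to the coding sequence of the parent, they were 96.7% to 100% identical, with a median of 99.6%. Of the 33, 9 had no substitution, among them Rpl31-ps8 and Rpl38-ps2, and every 100-base window of these 9 also occurred in the parent's transcripts. The 6 called members each had 4 to 9 substitutions, with identities of 98.7% to 99.4%, and 37.5% to 60.6% of their 100-base windows also occurred in the parent. An open reading frame at least 90% as long as the parent's was found in 24 of the 33 and in 5 of the 6.

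Substitutions are where the reference sequence of a copy can be told from that of its parent. The stretches with most of them are shown for some of the members whose counts differ between the mice. Positions are counted from the A of the parent's start codon, with the parent's base first. In substitutions, Rpl14-ps1 differs from Rpl14 by C420T, A423G, C569T and A570G, beside 3 gap bases in the alignment, and Rpl15-ps2 from Rpl15 by G15A, T81C, C104T, A156G, C322T, G323A, C354G and G605A. Sequences were read from the GENCODE transcripts of GRCm38, run 5′ to 3′ along the copy, and show in capitals the bases at which copy and parent differ. The stretch of Rpl14-ps1 lies at chr7:45325501-45325560 (plus strand) and that of Rpl15-ps2 at chr9:72061237-72061296 (plus strand).
Rpl14: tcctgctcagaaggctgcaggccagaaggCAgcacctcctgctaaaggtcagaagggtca
Rpl14-ps1: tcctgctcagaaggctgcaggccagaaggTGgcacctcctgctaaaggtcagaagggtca
Rpl15: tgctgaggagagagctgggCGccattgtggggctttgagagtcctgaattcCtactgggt
Rpl15-ps2: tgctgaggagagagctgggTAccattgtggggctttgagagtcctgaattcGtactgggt

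The copies of Rps19 and those of Rpsa shared some substitutions. The 2 copies of Rps2, 99.8% identical to each other, were aligned to coding sequences of Rps2 of 909 and 882 bases. Their substitutions are not compared by position here. Rps19-ps6 differs from Rps19 by C6T, T273C, G369A, G372A and C390T, and 4 of these, T273C, G369A, G372A and C390T, also occur in Rps19-ps3, a member that was not called and had 2.32 ± 0.313 CPM in MRL/mpj beside 2.01 ± 0.152 in MRL/lpr. Rpsa-ps10 and Rpsa-ps2 share T210C and C219T, so over that stretch they differ from Rpsa but not from each other. The shared stretches lie at chr12:110898460-110898519 (plus strand) in Rps19-ps6, chr10:128777008-128777067 (minus strand) in Rpsa-ps2 and chr3:150073299-150073358 (minus strand) in Rpsa-ps10, with differing bases again in capitals.
Rps19: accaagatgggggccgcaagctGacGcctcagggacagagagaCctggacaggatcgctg
Rps19-ps6: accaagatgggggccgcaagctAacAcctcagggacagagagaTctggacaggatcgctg
Rpsa: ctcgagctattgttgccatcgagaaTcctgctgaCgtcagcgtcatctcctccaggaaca
Rpsa-ps2: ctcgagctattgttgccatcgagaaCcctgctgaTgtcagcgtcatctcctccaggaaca
Rpsa-ps10: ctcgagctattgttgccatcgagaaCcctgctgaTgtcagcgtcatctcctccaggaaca

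The libraries also differed in markers of brain regions and of blood cells, whose part in the members' results was not tested. The 8 markers of hippocampal neurons, of which Zbtb20 was the most abundant, were found and summed to 1442, 1729 and 1494 CPM in the MRL/mpj libraries, 1152, 1382 and 921 in MRL/lpr, and 1098, 1333 and 1028 in MRL/lpr+MSC. All MRL/mpj libraries were above the rest, and 2 of the 8 were called lower in MRL/lpr (Fibcd1 and Spink8) and 1 in MRL/lpr+MSC (Fibcd1). The 7 markers of T and B cells, led by Cd79a, summed to 1.20, 0.473 and 0.599 CPM in the MRL/mpj libraries, 12.6, 7.97 and 4.39 in MRL/lpr, and 0.311, 1.53 and 2.03 in MRL/lpr+MSC. By limma voom 5 of the 5 tested were called higher in MRL/lpr, and limma-trend called 4. In MRL/lpr+MSC these lymphocyte markers overlapped with MRL/mpj.

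Choroid plexus markers, led by Ttr, varied most between libraries. The 6 of them summed to 165, 517 and 703 CPM in the MRL/mpj libraries, 1059.6, 9630.3 and 99.0 in MRL/lpr, and 99.0, 4833 and 551 in MRL/lpr+MSC. MRL/lpr 2 had the highest sum of the 9 libraries, and the groups overlapped. The 5 erythroid markers, led by Hba-a1, summed to 95.0 ± 60.9, 71.7 ± 26.7 and 71.2 ± 68.0 CPM in the 3 groups, in the order above, with Hba-a2 at 3 counts or fewer in every library, and 1 of 4 tested, Hbb-bt, was called lower in each comparison with MRL/mpj.

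Of the 29 tested markers of striatal neurons, thalamic neurons, choroid plexus, microglia and proliferating cells, 1 was called in MRL/lpr, Rgs9, which was higher. This is 3.45% beside 5.79% of all genes tested, and limma-trend called 2, beside 1323 of all genes tested. At an unadjusted p under 0.05 by limma voom were 9 of the 29, beside 5081 of the 16697 genes tested. In MRL/lpr+MSC limma voom called 0 of the 29, beside 3.43% of all genes tested, and limma-trend called 1, beside 601 of all genes tested. At an unadjusted p under 0.05 by limma voom were 6 of the 29, beside 3710 of the 16196 genes tested. The 7 striatal markers, led by Ppp1r1b, summed to 91.8 ± 4.47, 157 ± 23.1 and 155 ± 70.4 CPM in the 3 groups, and the 6 thalamic markers, led by Prkcd, to 158 ± 23.0, 228 ± 68.0 and 199 ± 101. The 5 microglial markers, led by Csf1r, summed to 282 ± 15.2, 243 ± 33.9 and 237 ± 16.2 CPM, and the 5 of proliferating cells, led by Mki67, to 9.34 ± 1.25, 14.1 ± 2.74 and 9.07 ± 1.51.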

How the data were processed

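Per the labels and the study's methods, the authors aligned the reads to GRCm38 (the labels name TopHat2, the methods STAR), used HTSeq to count reads per gene, and deposited raw counts and, for each library, FPKM values. FPKM were used to compare levels between genes. Of the columns with values, 0 had no sample. Symbols, biotypes, positions and transcript sequences came from GENCODE, which matched 47224 of 47643 genes. Each comparison was fitted on its 6 libraries in R 4.3.3 with limma voom (limma 3.58.1 and statmod 1.5.0), using robust empirical Bayes and adjusting p by Benjamini-Hochberg over every gene that passed the filter. Scaling was TMM, trimming 30% of log ratios and 5% of levels, and the filter asked for 10 counts in a library of median size in 3 libraries and 15 in total. A quasi-likelihood test on counts had been planned as the main test. The column separator of the matrix (a vertical bar) meant that the unit could not be registered as counts, so limma voom was used instead. The authors' own test, DESeq2 after voom normalization, was not run. The code was tested on simulated data.

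Copies were aligned to the closest coding sequence of the parent with Biopython 1.88. The genes named are the called members with the largest changes, the 10 members with the highest mean CPM, their parents, the members next to the minimum of 90 counts, Fas, and hosts and members named for lying inside another gene, such as Rps26-ps1. Gm10020, Gm4294, Rps19-ps3, Rplp0 and the called neighbours were named after their values were seen. The members and lists were chosen with earlier results of these data known. The 1000 kb window and limma-trend were chosen after seeing the data. Alternatives were RLE size factors, no filter, a single fit of all 9 libraries, a block on the replicate number, limma-trend, and leaving out each library.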

Additional observations from a re-analysis of the deposited data

How the results depend on the processing

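Alternatives were RLE size factors, no filter on low counts, a single fit of all 9 libraries, a block on the replicate number, limma-trend (chosen after seeing the data) and leaving out each library. DESeq2 and the quasi-likelihood test were not run. Of 132 alternative counts of calls, 119 were within 1.5 times the reported count and 13 were not. The 119 include the counts that stayed at 0, for which such a ratio has no meaning, and family counts of 1. For the genes called, 6 of 11 alternatives moved in MRL/lpr against MRL/mpj and 7 of 11 in MRL/lpr+MSC against MRL/mpj. The genes called between MRL/lpr and MRL/mpj (967) ran from 955 to 1323 under the other settings and from 165 to 1695 when 1 library was left out. Between MRL/lpr+MSC and MRL/mpj (556) they ran from 283, with the block, to 623, and from 193 to 1514 when 1 library was left out. The cause was not tested. Members called ran from 6 to 7 and, with a library left out, from 5 to 6 in MRL/lpr, and in MRL/lpr+MSC they were 6 and, with a library left out, 4 to 6. Families called stayed at 1 in each comparison with MRL/mpj. Between MRL/lpr+MSC and MRL/lpr every alternative, limma-trend included, called 0 genes, and 647 genes had an unadjusted p under 0.05 by limma voom. That number ran from 336 to 1210 with a library left out and was 1305 with no filter.

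Of 396 alternative log2 fold changes of named members, 364 kept their direction and their side of the threshold, 3 passed it, 6 no longer passed it and 23 changed sign. The 3 are Rps26-ps1 without MRL/mpj 3 in both comparisons and with the block in MRL/lpr (-5.16, adjusted p = 0.0362 by limma voom, lower in 3 of 3; 0.00691 to 0.427 over all alternatives). The 6 are Rpl15-ps2 and Rpsa-ps2 without MRL/mpj 2 or 3. The sign changes came from leaving out a library, in members near 0, and the cause was not tested. The log2 fold changes without 1 library ran, for MRL/lpr against MRL/mpj, from -0.071 to 0.062 for Rpl34-ps1, -0.23 to 0.085 for Rpl38-ps2 and -0.16 to 0.39 for Rps27a-ps2. For MRL/lpr+MSC against MRL/mpj they ran from -0.034 to 0.11 for Rpl31-ps8, -0.026 to 0.13 for Rpl34-ps1, -0.30 to 0.027 for Rpl38-ps2 and -0.14 to 0.13 for Rps27a-ps2. For MRL/lpr+MSC against MRL/lpr they ran from -0.0021 to 0.059 for Rpl14-ps1, -0.043 to 0.083 for Rpl3-ps1, -0.12 to 0.055 for Rpl38-ps2, -0.022 to 0.34 for Rps19-ps6, -0.030 to 0.076 for Rps2-ps10, -0.041 to 0.32 for Rps2-ps13, -0.40 to 0.15 for Rps27a-ps2 and -0.017 to 0.28 for Rpsa-ps10.

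No label states that mice of the same replicate number belong together. Across genes, deviations from the group mean correlated between libraries of the same number at -0.02, 0.13 and 0.05 for MRL/lpr with MRL/mpj, at -0.06, 0.13 and 0.22 for MRL/lpr+MSC with MRL/mpj and at -0.20, 0.25 and 0.40 for MRL/lpr+MSC with MRL/lpr. Between libraries of different numbers the correlations ran, in the same order, from -0.14 to 0.12, from -0.23 to 0.11 and from -0.44 to 0.23. Genes are not independent replicates. Members near the minimum of 90 counts had few counts, such as Rps24-ps3 with 7 to 17 counts per library. What deeper sequencing would change for them was not tested.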
